A study of Mus musculus with 6 samples.

Results

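Synaptotagmins are membrane proteins of secretory vesicles and of the plasma membrane that carry a pair of C2 domains, and in the calcium-binding members these domains couple calcium entry to SNARE-driven membrane fusion. Transcripts of 10 synaptotagmin genes (Syt1, Syt2, Syt3, Syt4, Syt5, Syt6, Syt7, Syt11, Syt13 and Syt17) were examined out of 55385 genes measured in mouse Neuro2A cells. They were chosen by gene name for their membership of the family, and also because Syt1 and Syt4 differed in opposite directions between the 2 groups, so the values of this comparison are given for them as a description and not as a test. Of the 10 genes, 8 averaged 1 FPKM or more, as did 12974 genes in all. FPKM is a fragment count scaled to transcript length and to library size.

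Neuro2A is an established mouse neuroblastoma line, labelled as neuroblasts from brain. The cells were transfected with the siRNA si-circCpsf6, directed against circCpsf6, a circular RNA named for the gene Cpsf6 (n = 3), or else with si-NC (n = 3), a second siRNA, each at a final 100 nM. Both groups therefore carried an siRNA and the lipid reagent, and no untransfected cells were analysed here. Nothing in the labels says that the replicates came from separate cultures, so the spread between libraries may be technical.

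The calcium-binding synaptotagmins differ in calcium affinity and location. Syt1 and Syt2 are the sensors of fast, synchronous transmitter release, Syt1 also acts on the chromaffin granules of adrenal cells, and Syt7 is a high-affinity sensor of slower release and of lysosome exocytosis. Syt4 and Syt11 carry a serine in place of a conserved calcium-binding aspartate in the first C2 domain, and Syt13 lacks calcium-binding residues as well, so "calcium sensor" is not an exact name for every gene of the set. Neuroblastoma lines derive from the sympathoadrenal lineage, whose cells secrete from large dense-core granules.

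The libraries had between 12671 and 13080 genes at 1 FPKM or more, and depth is unknown because low values did not fall on steps of whole reads. At the best of many trial depths, 29.7% to 31.5% lay within 0.1 of a step. By chance 20% do at a single fixed depth, and more do at the best of many. Correlations of log2(FPKM + 1) across tested genes were 0.936 to 0.971 within groups and 0.919 to 0.949 between groups, over genes, which are not independent replicates. The neuroblast and neuroblastoma marker list (11 genes that averaged 1 FPKM or more) summed to 718 to 773 FPKM in si-circCpsf6 and to 865 to 1072 FPKM in si-NC, ranges that did not overlap, with 0 of 11 genes past limma's test (adjusted p under 0.05, met by 1.69% of all tested genes) and 5 at an unadjusted p under 0.05 (met by 20.3%). Tubb3 made up much of the sum, with means of 392 FPKM in si-circCpsf6 and 506 FPKM in si-NC. Gata2, Gata3 and Stmn2 had higher means in si-circCpsf6 (1.42, 1.28 and 1.20 times si-NC), and the other expressed genes of the list had lower ones. The part of this list in the results was not tested. The fibroblast list summed to 1.29 to 7.24 and 1.28 to 8.99 FPKM in si-circCpsf6 and si-NC, the oligodendrocyte list to 1.5 to 3.16 and 3.19 to 4.05, the endothelial list to 1.59 to 3.19 and 0.79 to 1.21, the astrocyte list to 0.12 to 1.69 and 0.26 to 0.60 with Slc1a2 and Aqp4 at 0, and the leukocyte list to 0.09 to 0.19 and 0.10 to 0.30. The oligodendrocyte and endothelial ranges did not overlap between the groups either, at sums of a few FPKM. Mbp and Pecam1, the only genes of these lists that could be tested, had overlapping groups. Among single tested genes the groups did not overlap in 26.9%. No such share was computed for list sums, so nothing is read from them. Cpsf6 itself read 10.65, 15.06 and 14.50 FPKM in si-circCpsf6 and 14.09, 14.50 and 15.20 FPKM in si-NC (limma adjusted p = 0.688), and a value per gene does not measure the circle.

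Syt1 (ENSMUSG00000035864, chr10:108497650-109010982, minus strand, GRCm38), the sensor of synchronous vesicle fusion, read 11.21, 7.81 and 12.01 FPKM in si-circCpsf6 and 33.11, 35.53 and 36.15 FPKM in si-NC. The groups lay far apart: the highest si-circCpsf6 library was well under the lowest si-NC library. Means were 10.3 ± 2.23 and 34.9 ± 1.61 FPKM (SD, n = 3 each), 0.296 of the si-NC level, and the log2 fold change of FPKM + 1 was -1.68 ± 0.17 (SE). Syt1 was the only one of the 8 expressed members to pass the fit across all 12974 genes, in which 1.69% of genes were called (0.902% higher and 0.786% lower in si-circCpsf6). The call rests on values that chose the gene. It was lost when any 1 of the 3 si-NC libraries was left out, with no filter on low values, and with the replicate number as a block. The log2 fold change stayed between -1.72 and -1.66 in those settings. In bulk RNA, fewer cells with the transcript and less transcript per cell cannot be told apart.

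An earlier search of these same fold changes had picked the heptamer GCAGAAT in 3' untranslated regions (3' UTRs), so its presence is a description here. The longest annotated 3' UTR of each of the 10 genes was read on the sense strand in the GENCODE M21 transcripts. It held the heptamer in Syt1 once, in Syt11 at 2 places and in Syt2 once. The 4 sites are all those found and are shown as a description. The 2 expressed genes among these, Syt1 and Syt11, had the lowest fold changes of the 8, but the search had used those values, so nothing is read from this. Capitals mark the heptamer, and each line is written 5' to 3' in transcript sense.
Syt1, chr10:108499437-108499465, minus strand: ttagaaggaatGCAGAATatttttaacac
Syt11 first site, chr3:88745280-88745308, minus strand: tgtgggtagagGCAGAATgcctctccctg
Syt11 second site, chr3:88744714-88744742, minus strand: gccacacacgtGCAGAATaaagactgatt
Syt2, chr1:134751555-134751583, plus strand: taaacatacaaGCAGAATcttgtttaatc
The heptamer began at base 1086 of 2890 in the Syt1 3' UTR, at bases 2403 and 2969 of 3000 in Syt11 and at base 3885 of 5468 in Syt2. The second Syt11 copy overlapped the letters AATAAA, which form the usual polyadenylation signal. Long 3' UTRs hold any heptamer more often. The share with GCAGAAT was 10.2% of 10630 searched genes, but 17.6% of the 1500 whose 3' UTR was 0.8 to 1.25 times as long as that of Syt1, 17.9% of 1455 for Syt11 and 31.5% of 517 for Syt2. Syt4, Syt6 and Syt7, with 3' UTRs of 2375, 2783 and 4736 bases, held none in them, nor did Syt3, Syt5, Syt13 and Syt17. The shorter CAGAAT, counted within the heptamer as well, stood 3 times in Syt1, 2 times each in Syt4, Syt7 and Syt11, and 1 time in Syt2.

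Syt2 (ENSMUSG00000026452, chromosome 1), the close relative of Syt1 at fast brainstem and spinal synapses, was near the bottom of the scale. It read 0.19, 0.12 and 0.10 FPKM in si-circCpsf6 and 0.14, 0.13 and 0.12 FPKM in si-NC, under the filter and with overlapping groups. It overlaps Ppp1r12b on the other strand, which read 1.44 to 2.54 FPKM, and whether strand was used in counting is unstated.

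Of the other calcium-binding members, Syt5 was the one whose groups did not overlap. Syt5 (ENSMUSG00000004961, chromosome 7), a member reported on dense-core vesicles, read 8.15, 8.03 and 9.09 FPKM in si-circCpsf6 and 6.46, 6.50 and 5.0 FPKM in si-NC. All 3 si-circCpsf6 libraries were above all 3 si-NC libraries, with a log2 fold change of 0.44 ± 0.14 (SE, n = 3 each). Syt7 (ENSMUSG00000024743, chromosome 19) read 4.32, 5.60 and 9.03 FPKM in si-circCpsf6 and 4.67, 3.38 and 4.79 FPKM in si-NC. Its groups overlapped, the high mean in si-circCpsf6 came mostly from replicate 3, and the log2 fold change was 0.43 ± 0.25, against 0.18 without that library.

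Syt3 (ENSMUSG00000030731, chromosome 7), which acts in receptor endocytosis at the postsynaptic membrane, read 2.63, 1.45 and 4.11 FPKM in si-circCpsf6 and 1.98, 1.67 and 2.00 FPKM in si-NC. The si-circCpsf6 libraries lay on both sides of si-NC, and the log2 fold change of 0.31 ± 0.26 was 0.051 without si-circCpsf6 replicate 3. Syt6 (ENSMUSG00000027849, chromosome 3), known for its part in the acrosome reaction of sperm, read 10.38, 15.65 and 13.76 FPKM in si-circCpsf6 and 17.72, 13.67 and 16.74 FPKM in si-NC. Its groups overlapped, with a log2 fold change of -0.27 ± 0.18. The Syt6 locus also holds the intronic transcript Gm43066 on the same strand, at 0.60 to 1.71 FPKM, and Atg4a-ps on the other, at 0.79 to 2.35 FPKM.

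**Figure D1:**
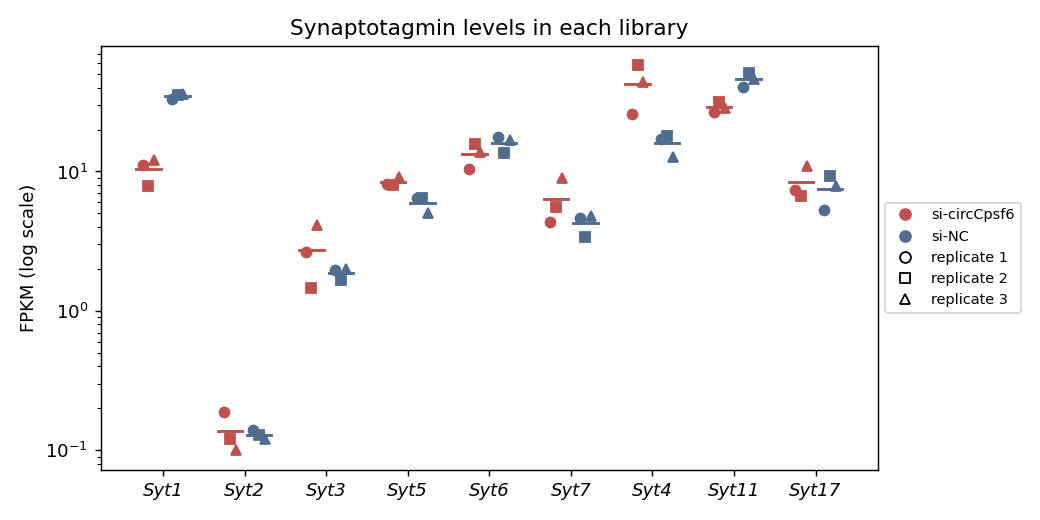
FPKM (log axis) of the 9 synaptotagmin genes with a value above 0 in each library, with si-circCpsf6 to the left of si-NC for each gene, marker shapes for replicates and lines for group means. The 2 groups are apart for Syt1, Syt5, Syt4 and Syt11 and overlap for the other genes; Syt13 was listed at 0 in every library and is not drawn.

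Syt4 (ENSMUSG00000024261, chromosome 18), a protein of dense-core vesicles and the Golgi whose gene is induced by neuronal activity, had the highest fold change of the 8. It read 25.73, 57.83 and 43.79 FPKM in si-circCpsf6 and 17.17, 18.07 and 12.61 FPKM in si-NC. The groups did not overlap, but the si-circCpsf6 libraries differed among themselves by more than the distance from the lowest of them to si-NC. Means were 42.45 ± 16.1 and 15.95 ± 2.93 FPKM (SD, n = 3 each), 2.66 times the si-NC level, with a log2 fold change of 1.30 ± 0.29 (SE). Syt4 did not pass the fit over all tested genes. It passed without si-circCpsf6 replicate 1 and when protein-coding genes alone were tested. The authors' deposited table marked Syt1 as down (log2 ratio -1.76) and Syt4 as up (log2 ratio 1.41), and no other of the 10 genes. That mark stands on 4.75% of the 12974 genes. Of 954 marked genes of the whole table, 936 had an authors' p under 0.05 and a log2 ratio of at least 1, up or down. A further 8 genes past both limits were not marked. Syt11 went unmarked at an authors' log2 ratio of -0.66, with a q of 0.03, given here as deposited. An annotated antisense gene in the Syt4 locus, Gm26658, read 0.06 to 0.41 FPKM.

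Syt11 (ENSMUSG00000068923, chr3:88744700-88775164, minus strand, GRCm38), the nearest relative of Syt4 and an inhibitor of endocytosis in neurons, read 26.49, 31.72 and 28.48 FPKM in si-circCpsf6 and 40.60, 51.08 and 45.71 FPKM in si-NC. All si-circCpsf6 libraries were under all si-NC libraries. The means were 28.9 ± 2.64 and 45.8 ± 5.24 FPKM (SD, n = 3 each), and the log2 fold change of -0.64 ± 0.14 (SE) did not pass over all tested genes, though it did over protein-coding genes alone. The pair without a full calcium site in the first C2 domain thus had fold changes of opposite sign, Syt4 above 0 and Syt11 below.

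Syt17 (ENSMUSG00000058420, chromosome 7), a member that has no transmembrane segment, read 7.42, 6.70 and 10.90 FPKM in si-circCpsf6 and 5.27, 9.26 and 7.86 FPKM in si-NC. The groups overlapped, and its log2 fold change of 0.15 ± 0.24 turned to -0.056 without si-NC replicate 1 and to -0.04 without si-circCpsf6 replicate 3. Syt13 (ENSMUSG00000027220, chromosome 2) was listed at 0 in all 6 libraries. None of 16 genes used by every cell was listed at 0, the lowest value among them being 2.39 FPKM.

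The fold changes of the 8 expressed members ranged from -1.68 to 1.30 with a median of 0.23, against a median of -0.021 over all tested genes. In 5 of the 8 the fold change was above 0. The groups did not overlap in 4 of the 8, Syt4 and Syt5 with si-circCpsf6 higher and Syt1 and Syt11 with si-circCpsf6 lower. Over all tested genes they did not overlap in 26.9%, with si-circCpsf6 higher in 12.8% and lower in 14.0%. Because the family was picked with this comparison known, nothing is read from these counts.

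**Figure D2:**
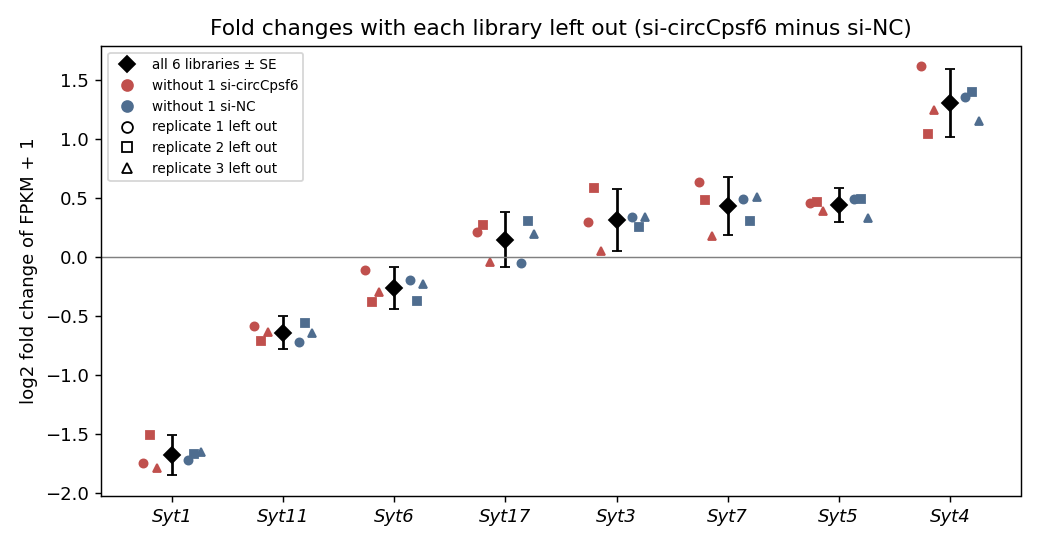
Log2 fold change (si-circCpsf6 minus si-NC, of FPKM + 1) of the 8 expressed synaptotagmins, with all 6 libraries (black, ± SE) and with each library left out in turn (coloured markers). Syt1 stays between -1.79 and -1.51 and Syt4 between 1.04 and 1.61, while Syt17 crosses 0.

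The order of the levels differed between the groups. In si-circCpsf6 it ran Syt4, Syt11, Syt6, Syt1, Syt5, Syt17, Syt7, Syt3, Syt2 and Syt13. In si-NC it ran Syt11, Syt1, Syt6, Syt4, Syt17, Syt5, Syt7, Syt3, Syt2 and Syt13. The ranges over libraries of Syt4 and Syt11 overlapped in si-circCpsf6, as did those of each neighbouring pair from Syt6 down to Syt7. In si-NC only Syt6 with Syt4 and Syt17 with Syt5 overlapped, so Syt11 and Syt1 stood above the rest there.

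The summed level of all 17 synaptotagmin genes of the table was 107, 143 and 143 FPKM in si-circCpsf6 and 134, 147 and 136 FPKM in si-NC. These sums overlapped between the groups, while the make-up of the total was not alike. Syt1 took 10.4%, 5.47% and 8.40% of that sum in si-circCpsf6, and 24.8%, 24.3% and 26.5% in si-NC. Syt4 took 24.0%, 40.5% and 30.6% in si-circCpsf6, and 12.9%, 12.3% and 9.24% in si-NC. The ratio of Syt4 to Syt1 FPKM, which does not depend on how a library is scaled, was 2.30, 7.40 and 3.65 in si-circCpsf6 and 0.519, 0.509 and 0.349 in si-NC. Syt4 was thus the more abundant of these transcripts per length in every si-circCpsf6 library and Syt1 in every si-NC library. The ratio of Syt11 to Syt1 was 2.36, 4.06 and 2.37 in si-circCpsf6, against 1.23, 1.44 and 1.26 in si-NC. These ratios rest on the genes that chose the family and are given as values.

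**Figure D3:**
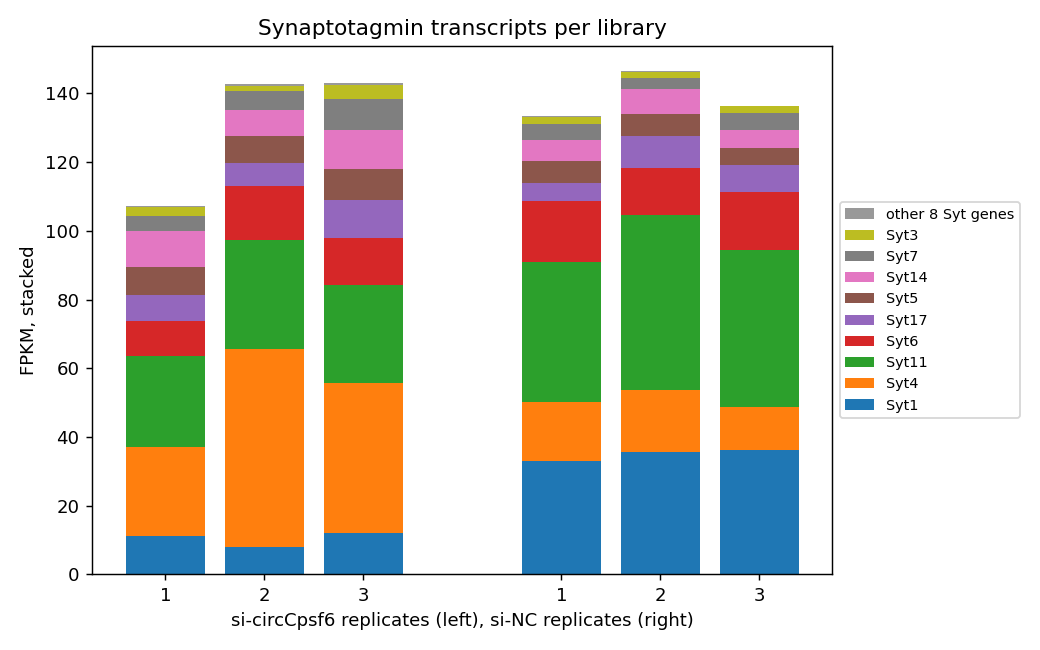
Stacked FPKM of the 17 synaptotagmin genes in each library, si-circCpsf6 replicates on the left and si-NC replicates on the right; each colour is a gene, and the 8 genes under 1 FPKM are summed. The column heights overlap between groups (107 to 143 and 134 to 147 FPKM), while the Syt1 block is smaller and the Syt4 block larger in every si-circCpsf6 library.

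Genes that work with synaptotagmins were taken by role, from lists written with earlier results of these libraries known. They held 69 genes that could be tested among 112 in the table. In all, 0 were called higher and 3 lower (limma, adjusted p under 0.05), 4.35% against 1.69% of all tested genes, and 19 (27.5%) had an unadjusted p under 0.05, against 20.3% of all tested genes. The 3 called genes encode cargo proteins of dense-core granules. Since earlier results were known when the lists were written, nothing is read from these shares. Of the 7 further synaptotagmins 1 could be tested, Syt14, a member that does not bind calcium, at 10.47, 7.40 and 11.27 FPKM in si-circCpsf6 and 6.17, 7.06 and 5.37 FPKM in si-NC. Its groups did not overlap, and the log2 fold change of 0.56 ± 0.18 did not pass (limma adjusted p = 0.148).

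Of the SNARE genes and their regulators 0 were called, at a share of 1.69% over all tested genes that leaves few calls to be found in lists this short. Of 13 tested SNARE genes, which encode the proteins that zip vesicle and target membranes together, 6 had a fold change above 0 and the median was -0.0079. Snap25, the plasma membrane SNARE with which Syt1 interacts, read 20.03, 22.33 and 23.27 FPKM in si-circCpsf6 and 26.64, 30.62 and 27.44 FPKM in si-NC (log2 fold change -0.35 ± 0.13, limma adjusted p = 0.174). Stx2 read 12.5 ± 0.881 and 16.4 ± 3.57 FPKM in si-circCpsf6 and si-NC (limma adjusted p = 0.291). Of 16 tested SNARE regulators 8 were above 0, with a median of 0.043. Cplx2, a complexin that clamps SNARE complexes until synaptotagmin acts, read 17.29, 21.82 and 37.08 FPKM in si-circCpsf6 and 15.30, 8.91 and 11.92 FPKM in si-NC. Its groups did not overlap, and its log2 fold change of 0.98 ± 0.29 did not pass (limma adjusted p = 0.128). Rims4, a short relative of the active zone RIM proteins, read 1.54 ± 0.51 and 3.01 ± 0.0529 FPKM (limma adjusted p = 0.102). Of the other C2-domain proteins 3 were tested. Esyt1, a tether between endoplasmic reticulum and plasma membrane, read 21.8 ± 3.23 and 16.0 ± 1.59 FPKM, and Doc2a, a sensor of spontaneous release, read 1.53 ± 0.0757 and 2.43 ± 0.747 FPKM (limma adjusted p = 0.183 and 0.271).

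Among vesicle proteins, 7 of 15 tested genes were above 0, with a median of -0.047 and 0 called. Sv2c, of the SV2 family whose members bind Syt1, read 55.57, 61.27 and 92.34 FPKM in si-circCpsf6 and 117.48, 118.06 and 119.15 FPKM in si-NC. Every si-circCpsf6 value was lower, yet they spread widely, and the log2 fold change of -0.79 ± 0.20 did not pass (limma adjusted p = 0.0890). Rab3c, a small GTPase of vesicles, read 24.8 ± 2.92 and 16.5 ± 2.11 FPKM in si-circCpsf6 and si-NC (log2 fold change 0.56 ± 0.15, limma adjusted p = 0.0969). In the vesicle retrieval list, 5 of 11 were above 0, the median was -0.076 and 0 were called. Picalm, a clathrin adaptor, read 19.4 ± 0.478 and 14.9 ± 1.21 FPKM, and Synj1, the phosphatase that uncoats vesicles, read 11.9 ± 0.272 and 8.07 ± 3.70 FPKM (limma adjusted p = 0.156 and 0.259).

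Granule cargo was the list that held calls: 3 of 10 tested genes were called lower and 0 higher. Over all tested genes 0.786% were called lower and 0.902% higher. The list was written with earlier results of these libraries known, so this count is a description and not a test. In 6 of the 10 the fold change was above 0, and the median was 0.11. Chgb, not called, read 463.20, 199.17 and 616.97 FPKM in si-circCpsf6 and 2073.04, 1073.28 and 1749.20 FPKM in si-NC. Its groups did not overlap, and the log2 fold change was -2.03 ± 0.44 (limma adjusted p = 0.0650). Chga, chromogranin A, a core protein of dense-core granules, fell to 99.15, 95.03 and 135.94 FPKM in si-circCpsf6, against 226.09, 226.21 and 248.61 FPKM in si-NC. Its log2 fold change was -1.10 ± 0.17 (limma adjusted p = 0.0335). The limma adjusted p was 0.0516 to 0.160 with any 1 library left out, 0.0992 with no filter on low values and 0.0615 with the replicate number as a block. Scg5, the chaperone of prohormone convertase 2, fell by 3.68 on the log2 scale (limma adjusted p = 0.00445). The neuropeptide precursor gene Vgf fell by 2.26, and its call (limma adjusted p = 0.0486) was lost without any 1 library other than si-circCpsf6 replicate 2. It was lost as well with a pseudocount of 0.1 (limma adjusted p = 0.0548), without the trend (0.0529), with no filter (0.141) and with the replicate number as a block (0.0734).

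**Figure D4:**
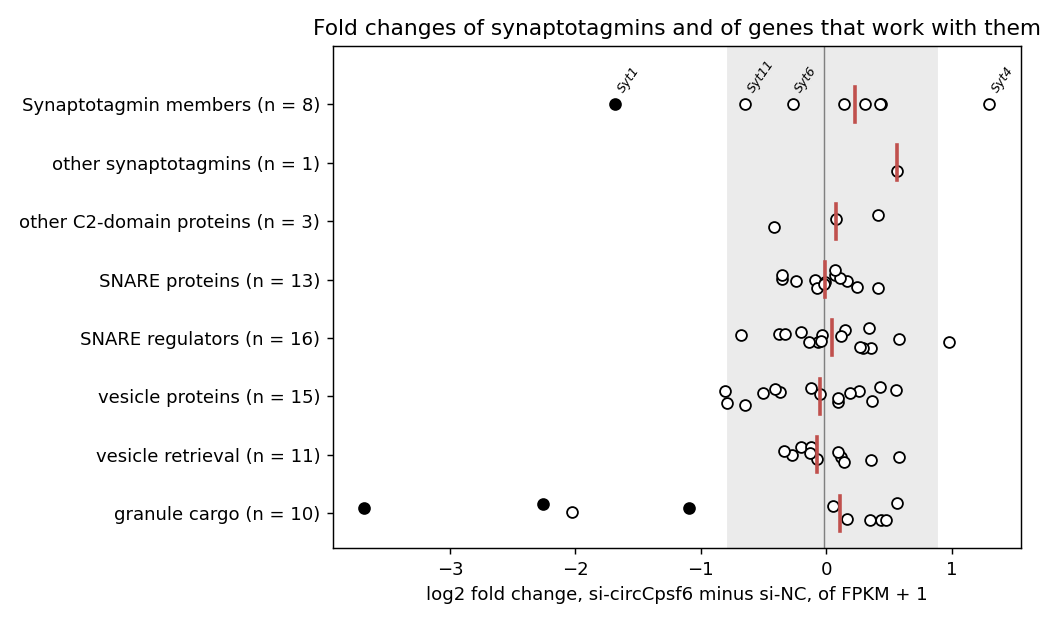
Log2 fold change (si-circCpsf6 minus si-NC, of FPKM + 1) of the tested genes of each list; filled points were called by limma, red bars are list medians, and the grey band spans the central 95% of all 12974 tested genes (-0.78 to 0.88). Syt1, the 3 called granule genes, Chgb, Rab27a and Sv2c lie left of the band, Syt4 and Cplx2 lie right of it, and the SNARE proteins all lie inside.

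The expression profiles most like those of Syt1 and Syt4 were sought among all tested genes, as the smallest root mean square distance over the 6 libraries between log2(FPKM + 1) values centred on each gene's mean. The 5 nearest to Syt1 were Neurl3 (distance 0.15), Disc1 (0.16), Ssr3 (0.18), Lancl1 (0.18) and H1f2 (0.20). Being chosen for their likeness, they share the Syt1 pattern by construction. Disc1, for a scaffold protein of neurons, read 1.64, 0.98 and 2.41 FPKM in si-circCpsf6 and 7.15, 5.60 and 7.41 FPKM in si-NC. The 5 nearest to Syt4 were Ero1l (0.16), Itga2 (0.16), Thsd7a (0.16), Soat2 (0.17) and Ciart (0.20). These too follow the Syt4 pattern because it chose them. Ero1l, the oxidase that drives disulfide formation in the endoplasmic reticulum, read 28.63, 61.88 and 58.64 FPKM in si-circCpsf6 and 24.31, 23.74 and 13.58 FPKM in si-NC. The choice rests on few libraries: without si-circCpsf6 replicate 2, 2 of the 10 genes were still among the nearest.

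**Figure D5:**
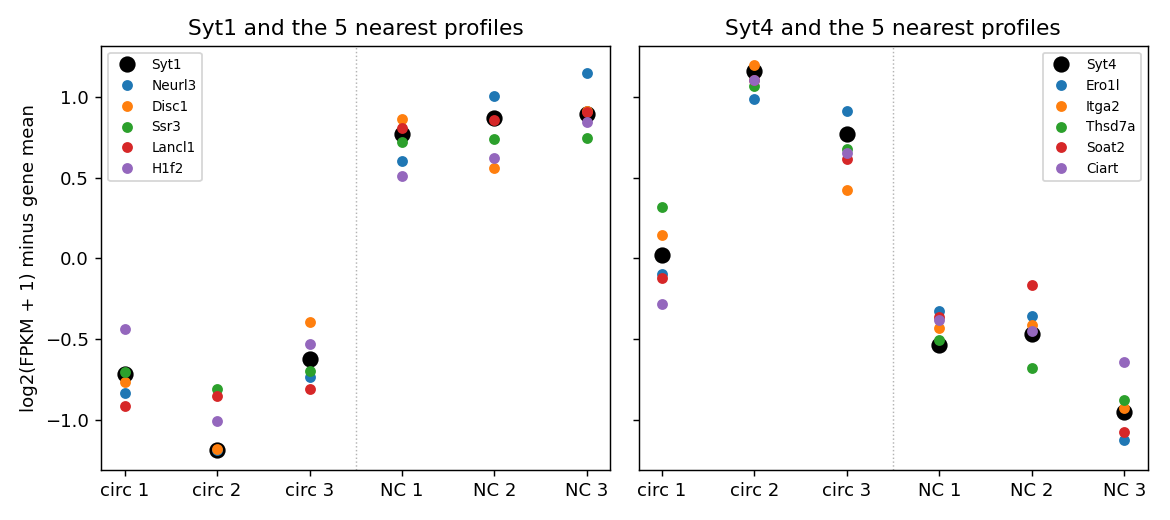
Log2(FPKM + 1) minus the gene's mean in each library (circ, si-circCpsf6; NC, si-NC) for Syt1 (left) and Syt4 (right), in black, with the 5 genes of nearest profile in colour. The Syt1 group is low in all 3 si-circCpsf6 libraries, and the Syt4 group is highest in si-circCpsf6 replicate 2.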

How the data were processed

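RNA was extracted with Trizol and made into libraries with a small RNA preparation kit, per the labels' protocols. The authors deposited 1 table with FPKM per gene and library, rounded to 2 decimals, per the file headers. Beside these stand a group ratio, its log2, and p-values and q-values, all computed by the authors per the file headers. How they tested, counted and treated strand is not stated. Bowtie 0.12.2, mm8 and mm9 appear in the submitters' processing notes, with no role attached.

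Groups and replicate numbers came from sample titles. Expression was compared on the log2(FPKM + 1) scale by limma 3.58.1 (R 4.3.3) over the 12974 genes that averaged 1 FPKM or more. The model held the group alone, without the replicate number, and let the variance follow the mean level. With the replicate number as a block, 11 genes were called in place of 219. P-values are two-sided, Benjamini-Hochberg adjusted, with a threshold of 0.05. This scale understates fold changes of low genes. No exact permutation test was run, since with 3 libraries a group its p cannot fall under 0.1. The fit was tested on simulated data. Positions and 3' UTRs came from GENCODE M21 (GRCm38), which held 55144 of the 55385 identifiers. Sequences were read with Python 3.11.15. Vamp7, of the SNARE list, was not analysed here.

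The members, gene lists and tests were chosen with earlier results of these data known. Named genes are all members and up to 4 called genes of each list (or, where none, the 2 with the smallest p). The 5 nearest profiles to Syt1 and to Syt4, Cpsf6 and genes overlapping Syt2, Syt4 and Syt6 are named too. Annotated genes also overlap Syt1, Syt3 and Syt7 and are not named. Chgb, Rab27a, further synaptotagmins and single marker genes were named beside these. Alternatives were other pseudocounts, filters, scalings and variance models, protein-coding genes alone, a replicate block, and each library left out.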

Additional observations from a re-analysis of the deposited data

How the results depend on the processing

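The count of 219 called genes was 13 with no filter on low values, 437 over protein-coding genes alone, and 3 to 87 with 1 library left out; other scalings, pseudocount, a stricter filter of 5 FPKM and the fit without the trend gave 191 to 283. Of the synaptotagmins, 1 was called with all libraries, 0 with no filter, 3 (Syt1, Syt4 and Syt11) over protein-coding genes alone, and 0 to 2 with 1 library left out, 0 without any of the 3 si-NC libraries and 2 without si-circCpsf6 replicate 1. Of the list genes, 3 were called, 4 over protein-coding genes alone, 2 with a pseudocount of 0.1 and without the trend, 1 with no filter and 1 to 2 with 1 library left out. The correlations of deviations for equal replicate numbers were 0.10, 0.13 and 0.08. These are low, yet every library correlated best with its own number, so whether the numbers pair the libraries is not settled. With the replicate number as a block, 11 genes, 0 synaptotagmins and 1 list gene (Scg5) were called. Of the 10 nearest profiles, 6 remained with a pseudocount of 0.1, 5 under the 5 FPKM filter, and 2 to 8 with 1 library left out, in settings chosen after the data were seen. Of 111 alternative values for the 8 expressed members, 2 changed sign, both of Syt17 (range -0.056 to 0.30 with 1 library left out, the lowest without si-NC replicate 1), and 101 kept direction and side of the threshold. Cpsf6 ranged from -0.21 to 0.017 in the same way, above 0 without si-circCpsf6 replicate 1. The cause of these differences was not tested. Unknown depth limits the low genes Syt2, Syt3 and Syt13.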

Other observations

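Of the further family genes, 4 had trace values in si-circCpsf6. Syt12 was listed at 0.08, 0.02 and 0.03 FPKM in si-circCpsf6 and at 0 in all 3 si-NC libraries. Syt8 was listed at 0.10, 0.15 and 0.09 FPKM in si-circCpsf6 and at 0, 0.03 and 0 in si-NC. In both the groups did not overlap, though for Syt12 the values lay near the last decimal given. The share of genes under the filter whose groups do not overlap was not computed, so nothing is read from these separations. Syt9 was listed at 0.16, 0.14 and 0.36 FPKM in si-circCpsf6 and at 0.25, 0.13 and 0.11 in si-NC, and Syt15 at 0, 0.03 and 0 in si-circCpsf6 and at 0.01, 0 and 0 in si-NC, with overlapping groups. All 4 lie under the filter and were not tested. Syt10 and Syt16 were listed at 0 throughout.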
